A study of Mus musculus with 12 samples.

Results

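The genes *Ccl3*, *Ccl4*, *Xcl1* and *Tnf* encode 3 chemokines and 1 inflammatory cytokine that T-cells secrete after engagement of the T-cell receptor (TCR). Members were taken as every probe set of the array whose single gene symbol in the platform annotation was one of these names. This gave 4 probe sets, 1 per gene, of 12488 on the array. The probe sets were 102424_at for *Ccl3*, 94146_at for *Ccl4*, 103199_at for *Xcl1* and 102629_at for *Tnf*.

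Total thymocytes came from female C57Bl/6 x 129Sv (F1) mice aged 6 to 7 weeks, 2 mice of each of 3 genotypes. *Med23flox/flox;Lck-Cre* thymocytes are called MED23 null. *Med23+/+;Lck-Cre* thymocytes (*Lck-Cre*) carry the Cre transgene without the floxed allele, *Med23flox/flox* thymocytes carry the floxed allele without Cre, and these 4 mice together are called control. Cells of each mouse were rested for 4 hours and then kept for 3 hours on plate-bound antibody to CD3 (αCD3), which engages the TCR complex, or mock treated, giving 12 arrays. The *Lck-Cre* transgene acts in developing T-cells late in the double-negative stage, and the suspension was not sorted, so earlier thymocytes and cells that are not T-cells were also measured. In such a suspension, fewer cells making a transcript and less of it per cell cannot be told apart.

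MED23 is a subunit of Mediator, the complex that links DNA-bound transcription factors to RNA polymerase II, and it is the subunit that ELK1, an ETS factor of the MAP kinase pathway, contacts to activate *Egr1*. TCR signals reach nuclear factors by several routes. Calcium activates NFAT, the MAP kinases act on ETS and AP-1 factors, and protein kinase C activates NF-κB. CCL3 and CCL4 are chemokines of activated T-cells and macrophages that attract other leukocytes. XCL1 (lymphotactin) attracts dendritic cells that carry XCR1, also within the thymus, where epithelial cells of the medulla make it too. TNF is made as a membrane protein, is released by the protease ADAM17 and binds TNFRSF1A and TNFRSF1B.

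*Ccl3* and *Ccl4* are neighbours on chromosome 11, *Xcl1* lies on chromosome 1 and *Tnf* on chromosome 17. By RefSeq on GRCm38.p6, the annotated ranges of *Ccl3* and *Ccl4* share 755 bases. Because the 4 genes had higher signals after αCD3 in all 6 mice, the 250 bases before the annotated start are shown for the 3 genes with a RefSeq entry in the promoter table used here, each 5′ to 3′ on the strand of the gene (the minus strand in all 3). Capitals mark each TTTCC, the reverse complement of GGAAA, the core of NFAT sites. The windows are chr11:83649379-83649628 for *Ccl3*, chr1:164935523-164935772 for *Xcl1* and chr17:35202008-35202257 for *Tnf*.
Ccl3: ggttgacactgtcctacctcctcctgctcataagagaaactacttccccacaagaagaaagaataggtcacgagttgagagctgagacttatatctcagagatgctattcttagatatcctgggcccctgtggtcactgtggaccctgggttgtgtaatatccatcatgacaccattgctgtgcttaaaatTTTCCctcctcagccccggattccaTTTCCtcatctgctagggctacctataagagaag
Xcl1: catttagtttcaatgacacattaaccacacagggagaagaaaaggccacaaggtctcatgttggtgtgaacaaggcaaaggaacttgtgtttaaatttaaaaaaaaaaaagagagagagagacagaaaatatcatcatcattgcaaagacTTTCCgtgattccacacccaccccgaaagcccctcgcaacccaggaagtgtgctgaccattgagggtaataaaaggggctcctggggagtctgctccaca
Tnf: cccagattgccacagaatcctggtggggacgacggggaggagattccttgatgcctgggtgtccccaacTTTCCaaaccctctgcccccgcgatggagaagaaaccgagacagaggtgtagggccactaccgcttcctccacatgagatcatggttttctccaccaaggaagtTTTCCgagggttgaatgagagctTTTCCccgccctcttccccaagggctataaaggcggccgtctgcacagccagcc
GGAAA had 2 matches in the *Ccl3* window, 1 in the *Xcl1* window and 3 in the *Tnf* window, all on the opposite strand. It is a common motif, found on either strand in 55.6% of 32851 RefSeq windows of this length. The nearest match ended 30 bases before the start in *Ccl3*, 50 bases in *Tnf* and 96 bases in *Xcl1*. On neither strand did the 3 windows hold the letters GGGANNTTC for NF-κB (3.23% of windows), TGANTCA for AP-1 (6.75%), TGACGTCA for the cyclic AMP response element (1.55%) or GCGTGGGCG for EGR factors (0.536%). The NF-κB letters can share bases with GGAAA. These are matches of letters only, and binding was not measured.

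Signals are linear MAS5 intensities in arbitrary units, which compare samples for 1 probe set but not 1 probe set with another. The αCD3 array of *Med23flox/flox* mouse 1 stood apart from the rest. Its lower quartile of all signals was 85.2, against at most 58.2 on the other 11 arrays, and it correlated with them at a mean of 0.905, where each of those correlated at 0.937 to 0.945. For the members, the inductions in control thymocytes and the differences from all control mice in induction and after αCD3 are therefore also given without this mouse. The gene lists, the likeness between genes and the shares without overlap were computed with all 6 mice. *Med23* itself gave signals of 239.0 to 252.1 in MED23 null and 309.9 to 488.8 in control thymocytes after αCD3, and of 207.3 to 268.4 in MED23 null and 288.1 to 424.2 in control thymocytes after mock treatment. The position of this probe set relative to the deleted exons was not determined. The 12 thymocyte markers on the array, among them *Cd3e*, *Cd4*, *Cd8a* and *Rag1*, had signals above 100 on every array, with *Rag1* between 21100 and 31890.

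All 4 members were higher after αCD3 than after mock treatment in 6 of 6 mice, as were 3.61% of the 9478 probe sets kept by the filter on low signals. Their ratio of αCD3 to mock signal was at least 2 in each of the 6 mice, from 2.31 for *Xcl1* in *Med23flox/flox* mouse 1 to 17.7 for *Ccl3* in MED23 null mouse 2. That mark was met by 20 of the 9478 probe sets (0.211%), the 4 members among them. The members were chosen with earlier results of these data known, so their place among these probe sets is no independent support. The filter asks for a mean of 100 or more in any 1 of the 6 conditions, and each member met it by its αCD3 arrays. By the mock arrays alone 3 of 4 members would have met it, and *Ccl4* would not. *Ccl3* and *Tnf* would have done so by the *Lck-Cre* mean only (130.9 for *Ccl3* and 147.3 for *Tnf*). For *Tnf* that mean rests on *Lck-Cre* mouse 1, at 244.8 against 34.9 to 59.0 in the other mice. After αCD3 24 of 24 member signals reached 100, while 11 of 24 mock signals did, so the ratios rest on low mock signals. With 50 added to each signal, 11 probe sets (0.116%) kept a ratio of at least 2 in all 6 mice, and *Ccl4*, *Xcl1* and *Tnf* were among them. The other 8 were *Nr4a1*, *Cd5*, *Itm2a*, *Egr2*, *Nab2*, *Fos*, *Ier2* and *Bcl2*. *Ccl3* met this mark in 5 of 6 mice, and in the 5 mice other than *Med23flox/flox* mouse 1 the mark was met by 12 probe sets (0.127%), with all 4 members among them.

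**Figure D1:**
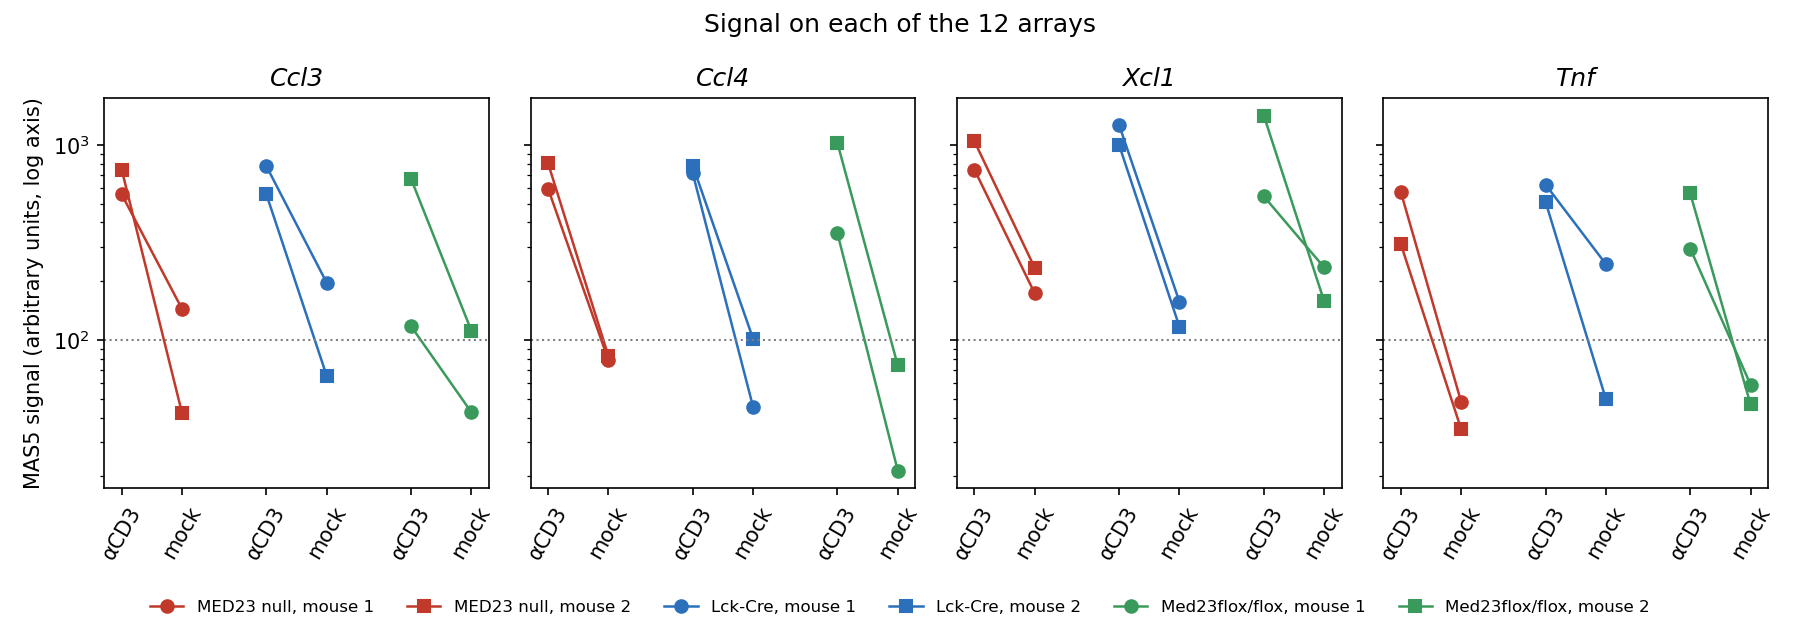
MAS5 signal (arbitrary units, log axis) of the 4 probe sets on each of the 12 arrays. Each line joins the αCD3 and the mock array of 1 mouse, circles are mouse 1 and squares mouse 2 of a genotype, and the dotted line marks a signal of 100. Every line falls toward the mock array, and *Med23flox/flox* mouse 1 has the lowest αCD3 signal of all 6 mice in each panel.

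*Ccl3*, the chemokine also called macrophage inflammatory protein 1 alpha, gave αCD3 signals of 557.2 and 747.1 in the MED23 null mice, 777.7 and 557.5 in the *Lck-Cre* mice, and 117.5 and 668.8 in the *Med23flox/flox* mice. Its mock signals were 144.4 and 42.3 in the MED23 null mice, 196.4 and 65.5 in the *Lck-Cre* mice, and 42.6 and 111.4 in the *Med23flox/flox* mice. The αCD3 signals of 5 mice lay between 557.2 and 777.7 and *Med23flox/flox* mouse 1 lay far below them, while the mock signals of the genotypes overlapped throughout. The ratio within a mouse was 3.86 and 17.7 in MED23 null, 3.96 and 8.51 in *Lck-Cre*, and 2.76 and 6.00 in *Med23flox/flox* thymocytes, and these ranges overlapped between all 3 genotypes. On the log2 scale with 50 added to each signal, the induction was 2.38 in MED23 null (standard error 0.45, n = 2 mice, limma adjusted p = 0.540) and 1.79 in control thymocytes (standard error 0.32, n = 4, adjusted p = 0.151). Neither passed the test at an adjusted p under 0.05. Here and below, the standard errors and adjusted p come from a fit of all mice together with a shared spread. They do not measure the spread of the mice of that group alone. Without *Med23flox/flox* mouse 1 the control induction was 2.10, with an adjusted p of 0.151.

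*Ccl4*, a chemokine of activated T-cells and macrophages, had the narrowest span of log2 ratios over the 6 mice among the 4 members, 2.33 to 3.11 with 50 added. After αCD3 its signals were 596.7 and 804.3 in the MED23 null mice, 713.2 and 782.3 in the *Lck-Cre* mice, and 351.5 and 1019 in the *Med23flox/flox* mice. The mock signals were 78.9 and 82.8 in MED23 null, 45.4 and 101.4 in *Lck-Cre*, and 21.4 and 74 in *Med23flox/flox* thymocytes. Every αCD3 signal was above every mock signal, and both MED23 null mice lay inside the range of the 4 control mice in each treatment. The induction within a mouse was 7.56-fold and 9.71-fold in MED23 null, 15.7-fold and 7.715-fold in *Lck-Cre*, and 16.4-fold and 13.8-fold in *Med23flox/flox* thymocytes. With 50 added, the log2 induction was 2.51 in MED23 null (standard error 0.23, n = 2, limma adjusted p = 0.0498) and 2.76 in control thymocytes (standard error 0.16, n = 4, adjusted p = 0.00274). *Ccl4* rose in both, as 1 of 3 probe sets that passed in the MED23 null mice (0.0317% of those tested) and 1 of 14 in the control mice (0.148%). The control call held without each mouse in turn (adjusted p of 0.0112 to 0.0406). In MED23 null thymocytes the adjusted p lay at the threshold, and it was 0.0892 to 0.715 when any 1 of the 6 mice was left out. The MED23 null call was also lost with unpaired arrays (adjusted p = 0.242), with the mouse as a random block (0.115) and with no filter on low signals (0.0577).

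*Xcl1*, a chemokine of activated CD8 T-cells and natural killer cells, was the member whose mock signals were above 100 in all 6 mice. Its αCD3 signals were 746.1 and 1042 in MED23 null, 1261 and 996.3 in *Lck-Cre*, and 544.1 and 1410 in *Med23flox/flox* thymocytes. Mock signals were 173.1 and 234.0 in MED23 null, 156.8 and 116.8 in *Lck-Cre*, and 235.3 and 157.8 in *Med23flox/flox* thymocytes. The MED23 null mice again fell within the control range in both treatments, but this rests on *Med23flox/flox* mouse 1. On the mock arrays both MED23 null mice were above the other 3 control mice (116.8 to 157.8). After αCD3 the MED23 null mouse at 746.1 was below those 3 (996.3 to 1410). Ratios were 4.31 and 4.45 in MED23 null, 8.04 and 8.53 in *Lck-Cre*, and 2.31 and 8.94 in *Med23flox/flox* thymocytes. Both MED23 null ratios were thus below those of 3 control mice and above that of *Med23flox/flox* mouse 1. The log2 induction with 50 added was 1.89 in MED23 null (standard error 0.42, n = 2, limma adjusted p = 0.548) and 2.30 in control thymocytes (standard error 0.30, n = 4, adjusted p = 0.0589), and neither passed. Without *Med23flox/flox* mouse 1 the control induction was 2.71 and passed, with an adjusted p of 0.00429. With all mice it also passed with unpaired arrays (adjusted p = 0.00375), with the mouse as a random block (0.00232), with 100 added in place of 50 (0.0328) and with a minimum signal of 200 (0.0344).

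*Tnf*, the inflammatory cytokine gene, gave αCD3 signals of 572.9 and 309.9 in MED23 null, 625.6 and 510.5 in *Lck-Cre*, and 293.9 and 563.4 in *Med23flox/flox* thymocytes. The mock signals were 48.2 and 34.9 in MED23 null, 244.8 and 49.9 in *Lck-Cre*, and 59.0 and 46.7 in *Med23flox/flox* thymocytes. On the mock arrays *Lck-Cre* mouse 1 stood far above the other 5 mice, and its αCD3 signal was the highest of the 6 as well. The ratios were 11.9 and 8.88 in MED23 null, 2.56 and 10.2 in *Lck-Cre*, and 4.98 and 12.1 in *Med23flox/flox* thymocytes. They overlapped between all 3 genotypes. With 50 added, the log2 induction was 2.37 in MED23 null (standard error 0.38, n = 2, limma adjusted p = 0.393) and 2.00 in control thymocytes (standard error 0.27, n = 4, adjusted p = 0.0603), and neither passed. Without *Med23flox/flox* mouse 1 the control induction was 2.12, with an adjusted p of 0.151. With all mice it passed with unpaired arrays (adjusted p = 0.0419), with the mouse as a random block (0.0228), with 100 added in place of 50 (0.0328) and with a minimum signal of 200 (0.0344).

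**Figure D2:**
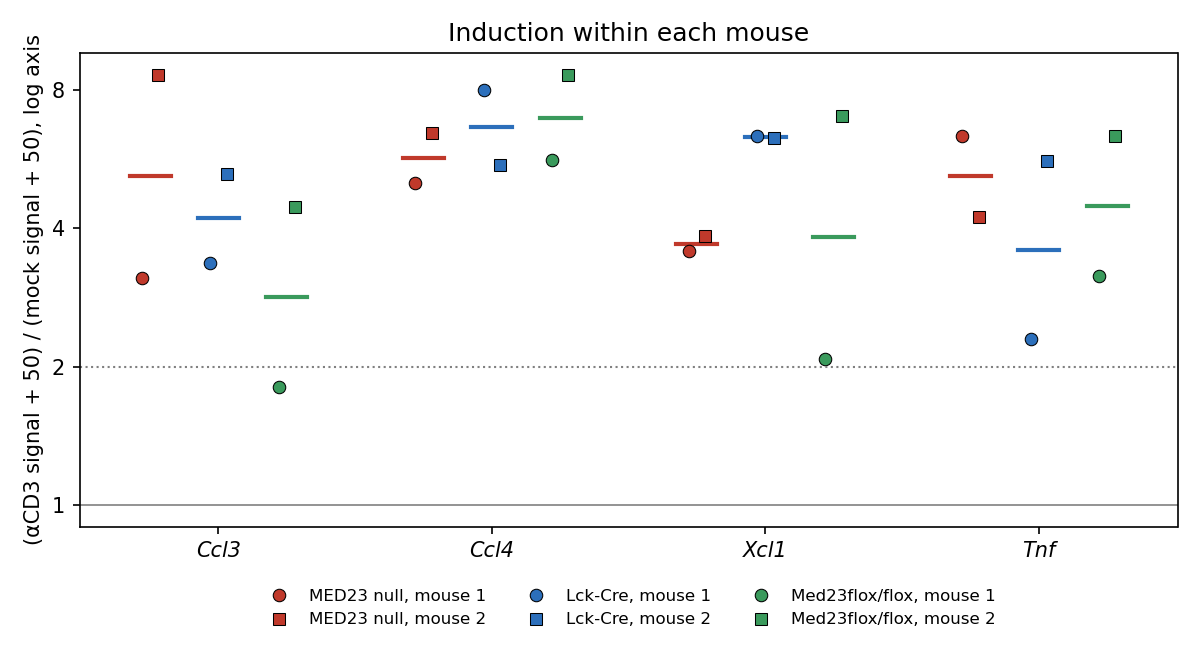
Induction in each mouse as the quotient of αCD3 and mock signals, 50 having been added to both (log axis). Points are mice (circles mouse 1, squares mouse 2), bars are the geometric mean of the 2 mice of a genotype, and the dotted line marks a ratio of 2. *Ccl4* has the tightest points, and *Ccl3* in *Med23flox/flox* mouse 1 is the 1 value under 2.

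None of the 4 inductions passed the test for either control genotype taken by itself. These values come from a fit of all mice with a mean for each of 3 genotypes and a shared spread. Their adjusted p therefore also rest on the mice of the other genotypes. The log2 induction in *Lck-Cre* thymocytes was 2.07 for *Ccl3*, 2.73 for *Ccl4*, 2.66 for *Xcl1* and 1.84 for *Tnf*, with adjusted p of 0.0813 to 0.525. In *Med23flox/flox* thymocytes it was 1.51 for *Ccl3*, 2.80 for *Ccl4*, 1.94 for *Xcl1* and 2.16 for *Tnf*, with adjusted p of 0.0883 to 0.448. Over all probe sets, 0.0317% rose past the threshold in *Lck-Cre* and 0.0211% in *Med23flox/flox* thymocytes. Before adjustment over all probe sets, each of the 4 members had a p under 0.05 in MED23 null, in control and in each control genotype. That mark was met by 508 of the 9478 probe sets in MED23 null, 737 in control, 574 in *Lck-Cre* and 897 in *Med23flox/flox* thymocytes.

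Within single mice the members, chosen with earlier results of these data known, mostly stood near the top of the array. Ranked by the log2 ratio with 50 added, *Ccl4* was between rank 2 and rank 15 of 9478 in every mouse. *Xcl1* was at rank 29 and 16 in the MED23 null mice, 8 and 4 in the *Lck-Cre* mice, and 782 and 5 in the *Med23flox/flox* mice. *Tnf* was at rank 4 and 10 in MED23 null, 241 and 7 in *Lck-Cre*, and 248 and 7 in *Med23flox/flox* mice. *Ccl3* was at rank 62 and 3 in MED23 null, 48 and 9 in *Lck-Cre*, and 1136 and 14 in *Med23flox/flox* mice. For all 4 members the rank farthest from the top was that of *Med23flox/flox* mouse 1.

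The 6 within-mouse log2 ratios were also set against those of every kept probe set with 1 gene symbol, other than the 4 members, by the root mean square of the 6 differences, as a description. The genes most like *Ccl4* were *Cd5*, a receptor that dampens TCR signals (0.40), *Nr4a1*, an orphan nuclear receptor switched on within an hour of TCR signals (0.62), and *Egr2*, a zinc finger transcription factor (0.79). Those most like *Xcl1* were *Irf4*, an interferon regulatory factor graded by TCR signal (0.54), *Itm2a*, a membrane protein of activated thymocytes (0.61), and *Cd5* (0.70). For *Tnf* they were *Itm2a* (0.71), the survival gene *Bcl2* (0.79) and *Nab2*, a corepressor of EGR factors (0.80). For *Ccl3* they were *Irf4* (0.81), *Itm2a* (0.81) and *Cd6*, a receptor related to CD5 (0.90). The 4 members were left out of that ranking. Between pairs of members the value ran from 0.68 for *Ccl3* and *Xcl1* to 0.98 for *Ccl3* and *Ccl4*. In *Med23flox/flox* mouse 1, whose αCD3 array stood apart, the log2 ratios were 0.86 for *Ccl3* and 2.49 for *Ccl4*. The order of the pairs without that mouse was not computed. For *Ccl3* both *Xcl1* (0.68) and *Tnf* (0.74) were nearer than any gene outside the members. This held for *Ccl3* only, since for *Ccl4*, *Xcl1* and *Tnf* a gene outside the members was nearest. These values rest on 6 mice that share the spread of the single arrays.

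The question the genotypes address is whether this response needs MED23. No difference in induction between MED23 null and control thymocytes passed the test for any member, and none did for any probe set on the array (0.0% of 9478, with 486 at an unadjusted p under 0.05, none of them members). The difference of the log2 inductions, MED23 null minus control, was 0.59 for *Ccl3* (95% interval -0.73 to 1.91), -0.26 for *Ccl4* (-0.93 to 0.41), -0.41 for *Xcl1* (-1.63 to 0.82) and 0.37 for *Tnf* (-0.73 to 1.47). All had a limma adjusted p of 0.9997. Without *Med23flox/flox* mouse 1 the differences were 0.28 for *Ccl3*, -0.35 for *Ccl4*, -0.82 for *Xcl1* and 0.26 for *Tnf*, with adjusted p of 0.736 to 0.984. The intervals of *Ccl3*, *Xcl1* and *Tnf* reach past a log2 value of 1 or -1, so a difference of that size lies within them. The interval of *Ccl4* reaches neither, but against *Lck-Cre* or *Med23flox/flox* alone it reaches -1.08 and -1.16. With 16 added in place of 50 the *Ccl4* difference was -0.42. The ranges of the ratio in MED23 null and control mice overlapped for each member, as they did for all but 13.5% of probe sets. For *Xcl1* the overlap rested on *Med23flox/flox* mouse 1 alone. Its log2 ratio with 50 added was 1.06, against 1.84 and 1.94 in MED23 null and 2.65 to 2.81 in the other control mice.

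Against each control genotype alone the result was no firmer. Relative to *Lck-Cre*, which also carries Cre, the difference in log2 induction was 0.31 for *Ccl3* (-1.30 to 1.91), -0.22 for *Ccl4* (-1.08 to 0.64), -0.77 for *Xcl1* (-2.17 to 0.63) and 0.53 for *Tnf* (-0.85 to 1.92). Relative to *Med23flox/flox* it was 0.87 for *Ccl3* (-0.74 to 2.48), -0.29 for *Ccl4* (-1.16 to 0.57), -0.047 for *Xcl1* (-1.45 to 1.35) and 0.21 for *Tnf* (-1.17 to 1.60). Both sets of differences share the 2 MED23 null mice. Over all probe sets 0.0% passed in either comparison, with 409 at an unadjusted p under 0.05 against *Lck-Cre* and 607 against *Med23flox/flox* thymocytes.

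After αCD3 the ratio of mean signals, MED23 null over control, ran from 0.849 for *Xcl1* to 1.23 for *Ccl3*. Without *Med23flox/flox* mouse 1 it was 0.836 for *Ccl4*, 0.731 for *Xcl1* and 0.779 for *Tnf*. *Ccl4* averaged 700.5 ± 147 in MED23 null and 716.5 ± 276 in control thymocytes (SD, n = 2 and 4). *Xcl1* averaged 894.0 ± 209 in MED23 null and 1053 ± 380 in control thymocytes, and *Tnf* averaged 441.4 ± 186 in MED23 null and 498.4 ± 144 in control thymocytes. For *Ccl3* the means were 652.1 ± 134 in MED23 null and 530.4 ± 290 in control thymocytes, a ratio of 1.23 that became 0.976 without *Med23flox/flox* mouse 1, when the control mean was 668.0. The log2 differences after αCD3, MED23 null minus control, were 0.49 for *Ccl3*, 0.041 for *Ccl4*, -0.16 for *Xcl1* and -0.17 for *Tnf*. Their limma adjusted p were 0.968 to 0.994. The ranges of both groups overlapped for all 4, as they did for all but 15.5% of probe sets. Without *Med23flox/flox* mouse 1 the differences were -0.034 for *Ccl3*, -0.24 for *Ccl4*, -0.43 for *Xcl1* and -0.38 for *Tnf*, with adjusted p of 0.706 to 0.980.

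In the mock arrays *Tnf* had the widest gap between means, 41.6 ± 9.40 in MED23 null and 100.1 ± 96.6 in control thymocytes (SD, n = 2 and 4). That gap rests on *Lck-Cre* mouse 1. Set against *Med23flox/flox* alone, the means were 41.6 in MED23 null and 52.9 in *Med23flox/flox* thymocytes. The mock log2 differences, MED23 null minus control, were -0.10 for *Ccl3*, 0.30 for *Ccl4*, 0.24 for *Xcl1* and -0.54 for *Tnf*, with adjusted p of 0.819 to 0.970, and that of *Tnf* was -0.16 without *Lck-Cre* mouse 1. The ranges of both groups overlapped for each member, as they did for all but 17.7% of probe sets. For *Xcl1* the overlap rested on *Med23flox/flox* mouse 1, without which the mock log2 difference was 0.38 (limma adjusted p = 0.644). No probe set passed (0.0%) in the mock or the αCD3 comparison of MED23 null with all control mice, with *Lck-Cre* or with *Med23flox/flox* mice. In these 6 comparisons 458 to 732 probe sets had an unadjusted p under 0.05, none of them members.

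**Figure D3:**
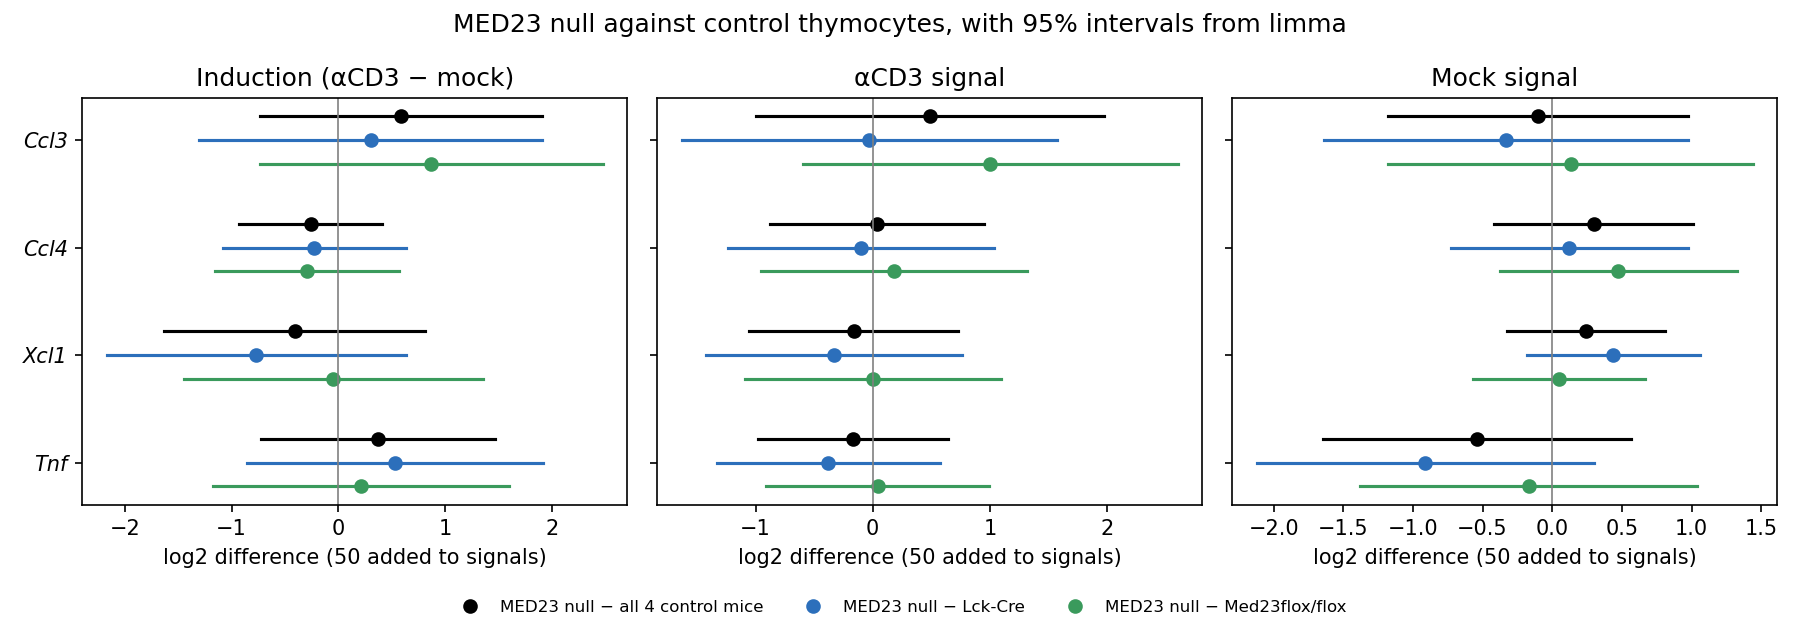
Differences between MED23 null and control thymocytes on the log2 scale with 50 added to signals, for the induction (left), the αCD3 arrays (middle) and the mock arrays (right). Points are limma estimates against all 4 control mice (black), *Lck-Cre* (blue) and *Med23flox/flox* (green), and bars are 95% intervals. Every interval shown includes 0.

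Of 36 chemokine ligand genes listed, 25 were on the array and 16 passed the filter. *Ccl4* was the 1 of these that passed, in MED23 null and in control thymocytes. Without *Ccl3*, *Ccl4* and *Xcl1* the remaining 13 had a median log2 induction of -0.15 in MED23 null and 0.11 in control thymocytes, against -0.019 in MED23 null and 0.0017 in control thymocytes over all probe sets kept. Those with the largest falls in control mice were *Ccl1*, a CCR8 ligand (0.65 in MED23 null and -0.55 in control), and *Pf4*, a platelet chemokine (-1.42 in MED23 null and -0.45 in control), neither past the test. *Ccl5*, a chemokine made late by activated T-cells, had log2 inductions of 0.17 in MED23 null and 0.018 in control thymocytes.

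Chemokine receptors showed 0 calls among 16 kept of 19 on the array, with medians of 0.25 in MED23 null and 0.056 in control thymocytes. *Cxcr3*, the receptor of interferon-induced chemokines, had log2 values of 0.39 in MED23 null and 0.74 in control thymocytes, and *Cxcr2* had -0.019 in MED23 null and 0.30 in control thymocytes. *Ccr7*, which guides mature thymocytes to the medulla, had -0.27 in MED23 null and -0.69 in control thymocytes, and *Ccr3* had -0.85 in MED23 null and -0.47 in control thymocytes. *Xcr1*, the receptor of XCL1, had 0.19 in MED23 null and 0.037 in control thymocytes.

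The 9 TNF superfamily ligands kept besides *Tnf* had a median log2 induction of -0.17 in MED23 null and 0.56 in control thymocytes, with 0 calls. *Tnfsf8*, the ligand of CD30, had -1.14 in MED23 null and 0.66 in control thymocytes, and the difference between them had an adjusted p of 0.809. *Lta* (lymphotoxin alpha), a close relative of *Tnf*, had -0.17 in MED23 null and -0.0048 in control thymocytes, and *Eda*, a ligand of skin appendage development, had -0.32 in MED23 null and -0.11 in control thymocytes.

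On the receptor side, 14 TNF receptor superfamily genes were kept, with medians of 0.014 in MED23 null and 0.022 in control thymocytes, and 0 passed by their brightest probe set. A second probe set of *Tnfrsf9*, a costimulatory receptor of activated T-cells, rose in control thymocytes (log2 1.41, adjusted p = 0.0259) and had 0.78 in MED23 null thymocytes (adjusted p = 0.613), while its brighter probe set had -0.63 in MED23 null and -0.20 in control thymocytes. *Tnfrsf4*, another costimulatory receptor, had 0.24 in MED23 null and 0.80 in control thymocytes. For the receptors of TNF itself, *Tnfrsf1b* had 0.41 in each of MED23 null and control thymocytes, and *Tnfrsf1a* had -0.36 in MED23 null and -0.23 in control thymocytes. *Ltbr* had 0.14 in MED23 null and -0.38 in control thymocytes, and *Cd40* had -0.29 in each.

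Among 11 genes of TNF signalling, release and mRNA decay, 0 passed, with medians of 0.087 in MED23 null and 0.033 in control thymocytes. *Zfp36l1*, which promotes decay of mRNAs with AU-rich elements, had 0.64 in MED23 null and 0.99 in control thymocytes. *Tnfaip3*, an inhibitor of NF-κB signalling, had 0.55 in MED23 null and 0.72 in control thymocytes. *Adam17*, which releases TNF, had -0.32 in MED23 null and -0.088 in control thymocytes. *Zfp36l2* had 0.065 in MED23 null and -0.18 in control thymocytes, and *Traf5*, an adaptor of TNF receptors, had 0.71 in MED23 null and -0.10 in control thymocytes.

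Of 14 T-cell cytokine genes, 13 were on the array and 8 were kept, none past the test, with medians of 0.21 in MED23 null and 0.51 in control thymocytes. *Il2* and *Ifng* did not pass the filter. *Il5* had a log2 induction of -1.12 in MED23 null and 1.10 in control thymocytes (adjusted p = 0.512 and 0.0589), and the difference had an adjusted p of 0.453. *Il4* had 0.43 in MED23 null and 1.43 in control thymocytes. *Csf1* had -0.66 in MED23 null and -0.34 in control thymocytes, and *Il16* had 0.080 in MED23 null and -0.14 in control thymocytes.

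**Figure D4:**
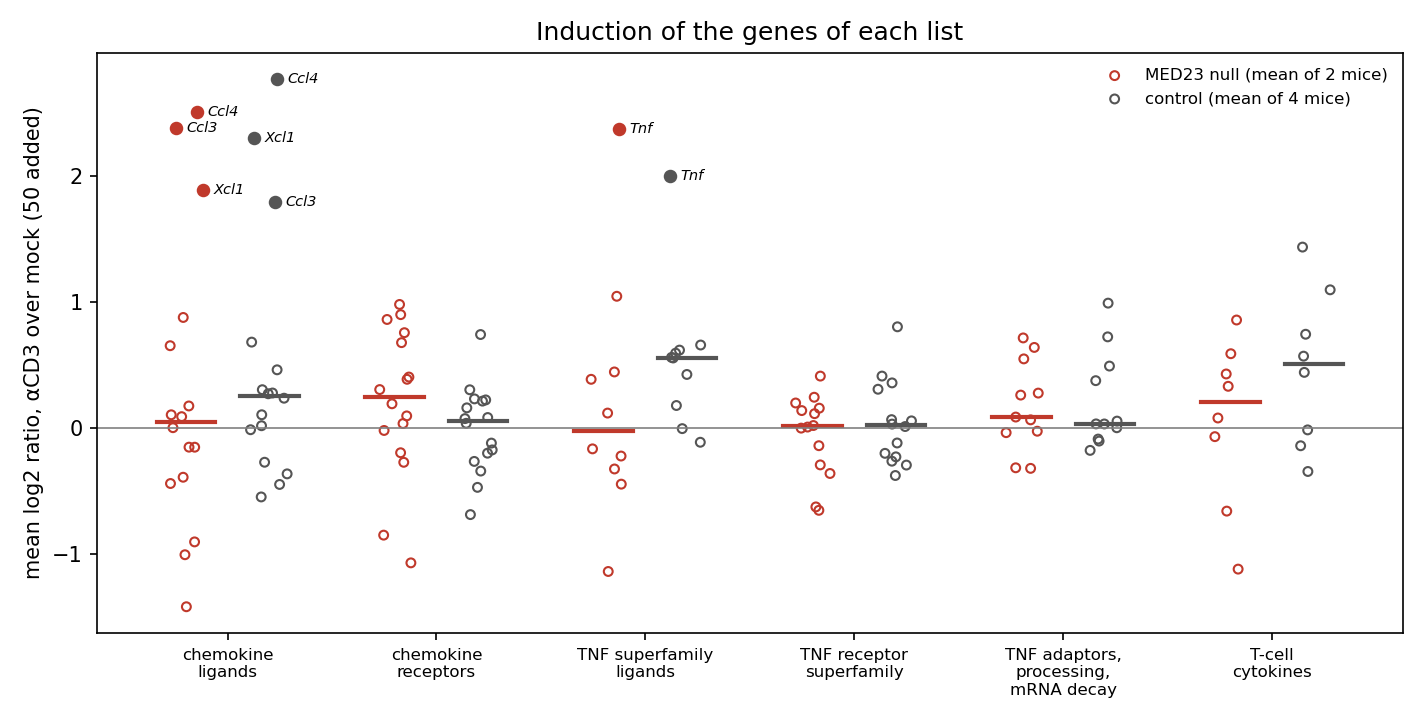
Mean within-mouse log2 ratio of αCD3 to mock signal (50 added) of each gene kept in 6 lists, in MED23 null (red, 2 mice) and control thymocytes (grey, 4 mice). Each point is 1 gene, short bars are list medians, and filled points are the 4 members, which lie above all other genes of their lists in both groups. Members and lists were chosen with earlier results of these data known, so this position is no independent support.

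Other cells that make these proteins were looked at through marker lists. The 15 myeloid markers summed to 4619 to 5226 in MED23 null and 3750 to 4853 in control thymocytes after αCD3, and to 4970 to 5394 in MED23 null and 3379 to 5276 in control thymocytes after mock treatment. Over the 12 arrays *Cd14* was at 475.3 to 851.3, *S100a8* at 580.3 to 1752 and *Csf1r* at 156.0 to 232.4, while the macrophage receptor gene *Marco* was at 6.7 to 39.9. The 11 natural killer and innate-like markers summed to 4244 to 5442 in MED23 null and 2321 to 2922 in control thymocytes after αCD3, and to 4216 to 6119 in MED23 null and 1824 to 2596 in control thymocytes after mock treatment. Most of that gap was *Gzma* (granzyme A), at 3268 to 4252 in MED23 null and 1268 to 1548 in control thymocytes after αCD3. The other 10 summed to 976.8 to 1189 in MED23 null and 920.9 to 1555 in control thymocytes after αCD3, and over the 12 arrays *Tyrobp* was at 156.0 to 359.3, *Klrd1* at 152.9 to 315.8 and *Ncr1*, which defines natural killer cells, at 6.8 to 48.9. The 9 B-cell markers summed to 8984 to 9271 in MED23 null and 6747 to 8294 in control thymocytes after αCD3, and to 8065 to 8252 in MED23 null and 6980 to 7583 in control thymocytes after mock treatment. The 12 thymocyte markers summed to 105600 to 108700 in MED23 null and 111200 to 112900 in control thymocytes after αCD3, and to 102600 to 107800 in MED23 null and 120700 to 125700 in control thymocytes after mock treatment. Such sums mostly follow the brightest probe sets and do not describe a list as a whole. Over the 12 arrays the medians were 27250 for *Rag1*, 20560 for *Dntt* and 19890 for *Cd8b1*. Among the B-cell markers the median of *Ighm* was 5605. As a sign of RNA quality, the actin probe set at the 3′ end exceeded that at the 5′ end by a factor of 1.61 to 1.90 in MED23 null and 1.35 to 1.41 in control thymocytes after αCD3, and 1.44 to 1.63 in MED23 null and 1.35 to 1.60 in control thymocytes after mock treatment. The same ratio for *Gapdh* overlapped between the groups. It was 0.636 to 0.766 in MED23 null and 0.599 to 0.648 in control thymocytes after αCD3. After mock treatment it was 0.635 to 0.664 in MED23 null and 0.580 to 0.693 in control thymocytes. The part of these markers in the comparisons of genotypes was not tested.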

How the data were processed

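RNA of total thymocytes was measured on Affymetrix U74Av2 mouse arrays, 1 array per mouse and treatment. The authors computed MAS5 signals, and the deposited values are linear intensities per probe set. The version of MAS5 is not given in the sources used here. Arrays carry no read depth, and their number limits the precision.

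Each array was scaled to a trimmed mean (2% at each end, which moved no array by more than 0.006%). The 66 control probe sets were left out, and 9478 probe sets whose mean reached 100 in 1 or more of the 6 conditions were kept. Signals were tested as log2(signal + 50), which understates the change of low signals, with limma 3.58.1 (lmFit and eBayes) in R 4.3.3 and Benjamini-Hochberg adjustment over all probe sets kept. Inductions were fitted on the within-mouse differences of αCD3 and mock arrays, since the labels tie both arrays to 1 mouse. The deviations of the paired arrays from their group means correlated at 0.061 to 0.149. The identifier in the description of the αCD3 array of *Lck-Cre* mouse 2 equals that of another sample, and titles and source names were used instead. Genotypes were compared with pooled control mice and, in fits with a mean for each genotype, with each control genotype. Every fit used an estimate of the spread shared by all its groups and moderated by eBayes. The alternatives were other pseudocounts, filters, scalings, a trend in eBayes, other treatments of the pairing, a block by replicate number and leaving out each mouse. The scripts were tested on simulated data.

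Gene symbols came from the platform annotation, which gives 1 symbol for 10855 probe sets. The members and all lists were chosen with earlier results of these data known. From each list, genes past the threshold in MED23 null or control thymocytes were named, as were those with the 2 largest rises and falls in control mice, by the brightest probe set of a gene. *Adam17*, *Ccl5*, *Ifng*, *Il2*, *Tnfrsf1a* and *Xcr1*, the marker genes named singly, and the other 8 genes with a 2-fold response in every mouse, were named after their values were seen. Promoter sequences are from RefSeq (GRCm38.p6, 3 of 4 members matched). Tables and figures used Python 3.11.15 with pandas 2.3.3 and matplotlib 3.10.9.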

Additional observations from a re-analysis of the deposited data

Results flagged for a closer look

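In 12 groups of 4 control mice (4 genes, with the αCD3 signal, the mock signal and the log2 ratio of each), 2 held a mouse far from the other 3, where chance gives about 5% of groups. For the log2 ratio of *Xcl1* this was *Med23flox/flox* mouse 1 (1.06, against 2.65 to 2.81 in the other 3), with a gap of 0.907 of the whole range. For the mock signal of *Tnf* it was *Lck-Cre* mouse 1 (244.8, against 46.7 to 59.0), with a gap of 0.893 of the range on the log2 scale. The critical value for 4 samples is 0.829.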

How the results depend on the processing

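The precision is limited by 2 MED23 null mice and by mock signals that were often under 100. *Ccl4* in control thymocytes kept its call under all 16 alternatives (adjusted p of 0.000978 to 0.0406). In MED23 null thymocytes it kept the call with a minimum signal of 200 (limma adjusted p = 0.0216) and with the values as deposited. No member passed there with pseudocount 16 or 100, no filter, 10% trimming, quantile normalization or an eBayes trend. Nor did any with unpaired arrays or with the mouse as a random block. Under these settings the adjusted p of *Ccl4* was 0.0529 to 0.242. Without any 1 control mouse it was 0.0892 to 0.183, and no member passed. Without MED23 null mouse 1 the log2 induction of *Ccl4* was 2.69, and without mouse 2 it was 2.33. In control thymocytes 3 members passed (*Ccl4*, *Xcl1* and *Tnf*) with pseudocount 100, with a minimum of 200, with unpaired arrays and with the mouse as a random block. Without 1 control mouse 1 to 2 passed, the 2 being *Ccl4* and *Xcl1* without *Med23flox/flox* mouse 1. With a minimum of 200, 1 member (*Ccl4*) passed in *Lck-Cre* and 1 in *Med23flox/flox* thymocytes. The cause of these shifts was not tested. The count of members at a 2-fold response in every mouse with 50 added was 3, and 4 without *Med23flox/flox* mouse 1, an alternative chosen after seeing the data. No member differed between genotypes past the threshold under any of these alternatives. Where a genotype kept 1 mouse, that mouse was assumed to vary like the others.

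Treating mock and αCD3 arrays as unpaired left the difference in induction of *Ccl4* at -0.26 (adjusted p = 0.9997). A replicate block by number gave the same value (adjusted p = 0.9969) and changed no call. Mice of different genotypes share only a number, and their same-numbered deviations correlated at -0.011 to 0.116.

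Some differences near 0 changed sign. For *Xcl1*, MED23 null minus *Med23flox/flox*, the difference in induction was 0.013 with 10% trimming and 0.054 with quantile normalization, the mock difference was -0.016 with quantile normalization, and the αCD3 difference was -0.0049 with pseudocount 100. Leaving out 1 mouse at a time gave these ranges of the difference in log2 induction, listed where they include both signs. That of *Ccl3*, MED23 null minus *Med23flox/flox*, kept its sign but ran from 0.14 to 1.61. MED23 null minus all control mice was -0.15 to 1.32 for *Ccl3*. MED23 null minus *Lck-Cre* was -0.43 to 1.04 for *Ccl3*, -0.49 to 0.047 for *Ccl4* and -0.11 to 1.18 for *Tnf*. MED23 null minus *Med23flox/flox* was -0.60 to 0.015 for *Ccl4*, -0.92 to 0.83 for *Xcl1* and -0.29 to 0.72 for *Tnf*.

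After mock treatment the ranges with both signs were as follows. MED23 null minus all control mice was -0.64 to 0.44 for *Ccl3*. MED23 null minus *Lck-Cre* was -0.88 to 0.21 for *Ccl3* and -0.21 to 0.46 for *Ccl4*. MED23 null minus *Med23flox/flox* was -0.41 to 0.67 for *Ccl3* and -0.18 to 0.28 for *Xcl1*.

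After αCD3 the ranges with both signs were as follows. MED23 null minus all control mice was -0.034 to 0.73 for *Ccl3*, -0.24 to 0.24 for *Ccl4*, -0.43 to 0.064 for *Xcl1* and -0.56 to 0.23 for *Tnf*. MED23 null minus *Lck-Cre* was -0.25 to 0.20 for *Ccl3*, -0.30 to 0.10 for *Ccl4* and -0.77 to 0.018 for *Tnf*. MED23 null minus *Med23flox/flox* was -0.047 to 2.05 for *Ccl3*, -0.52 to 0.89 for *Ccl4*, -0.65 to 0.65 for *Xcl1* and -0.37 to 0.46 for *Tnf*.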
